A study of Mus musculus with 8 samples.

Results

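The subunits of the oxidative phosphorylation complexes were examined in the platelet RNA of mice with chronically raised TNF-α. Members were the genes whose symbols carry the naming of these subunits (Nduf, Sdh, Uqcr, Cox4 to Cox8, Atp5, and the protein-coding genes of the mitochondrial chromosome), without symbols marked as pseudogenes by -ps. Of the 43548 genes in the table, 99 matched and 3 were dropped for -ps, which left 96 members. By symbol, 44 belonged to complex I, 4 to complex II, 9 to complex III, 20 to complex IV and 19 to complex V. The nucleus encodes 83 of them and the mitochondrial chromosome 13, of which 7 belong to complex I, 1 to complex III, 3 to complex IV and 2 to complex V. A symbol is not a role in every case. Atp5s and Atp5sl carry the name without being core parts of the synthase, Cox7a2l assembles supercomplexes, and Ndufa4, placed here by its name in complex I, is found in complex IV.

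The study compared TNFdARE mice, labelled TNFdAre +, with littermate controls, labelled TNFdAre -. TNFdARE mice lack the AU-rich elements that destabilise the Tnf transcript, so TNF-α is raised throughout the body from before birth, and they develop arthritis and bowel inflammation. The line was backcrossed to C57BL/6J, the libraries were labelled as baseline, with no treatment, and each group held 4 mice aged 8 to 12 weeks, 2 females and 2 males by their labels. The label texts also contain a passage on 3 mice per group and one on males aged 5.2 months, which differ from the 4 samples listed for each group, and the study's methods were followed. All 8 samples carry the same batch label.

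Oxidative phosphorylation couples electron transport to ATP synthesis in the inner mitochondrial membrane. Complexes I and II take electrons from NADH and succinate, complex III passes them to cytochrome c, complex IV hands them to oxygen, and complex V uses the resulting proton gradient to make ATP. Platelets have no nucleus, but they carry mitochondria with their own DNA and transcripts inherited from megakaryocytes, and resting platelets draw on both respiration and glycolysis.

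The measurement was 1 value per gene and mouse, read as FPKM, the fragments of a gene divided by the length of its transcript and by all mapped fragments of the library. The summed FPKM of a library lay between 46047 and 99470 and the number of genes above 0 between 818 (TNFdARE mouse 1) and 4917 (TNFdARE mouse 3). These numbers include some genes with values next to 0. For genes with 1 transcript of at least 2000 bases, the lowest FPKM times kilobases above 0 was 5.8e-09 in control mouse 1. It was 2.3e-214 in control mouse 4. The ribosomal RNA-related gene AY036118 held 33.7% to 67.7% of the sum. Read numbers are unknown, so the depth behind each value is unknown too. Hprt, which most cells use, was listed at 0 in all 8 libraries, and Gapdh was above 0 in 3 and Ppia in 2, so a listed 0 may be a failed estimate and is reported here only as listed. All 18 markers of platelets and megakaryocytes had a mean FPKM of at least 1, with a summed FPKM of 1334 to 1839 in control and 1224 to 1390 in TNFdARE mice. The values are from bulk RNA, in which fewer cells of a type and less RNA per cell cannot be told apart.

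The mitochondrially encoded members were listed at 0 throughout, while near-identical nuclear copies of 7 of them were above 0. The 13 members are subunits of the proton-pumping membrane arm of complex I (mt-Nd1 to mt-Nd6 and mt-Nd4l), cytochrome b of complex III (mt-Cytb), the catalytic core of complex IV (mt-Co1, mt-Co2 and mt-Co3) and part of the proton channel of complex V (mt-Atp6 and mt-Atp8). Each was at 0 FPKM in all 8 libraries. So were all 37 genes of the mitochondrial chromosome in the table, its ribosomal and transfer RNAs included. A comparison of annotated transcripts (GENCODE M21, GRCm38, at least 95% identity over at least 150 bases) found a nuclear copy in the table for 9 of the 13 members, and none for mt-Atp8, mt-Cytb, mt-Nd1 or mt-Nd6. The copies of mt-Co1, mt-Co2, mt-Atp6, mt-Co3, mt-Nd3, mt-Nd4l and mt-Nd4 lie one after the other on the minus strand at chr1:24611535-24616197, over 4663 bases, and are annotated as unprocessed pseudogenes. 5 of these 7 copies are identical to the mitochondrial gene along the aligned stretch, and the lowest identity is 99.7%.

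The closeness of these pairs can be read from the copy of mt-Co1, Gm29216, which differs from it at 1 of 483 aligned bases. The stretch around that base is shown 5′ to 3′ from the GRCm38 transcripts, with the differing base in capitals. The difference is A1066T, counted from 1 at the 5′ end of the mt-Co1 transcript. The first sequence lies at chrM:6390-6450 on the plus strand and the second at chr1:24616128-24616188 on the minus strand.

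mt-Co1: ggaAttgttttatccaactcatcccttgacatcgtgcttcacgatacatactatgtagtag
Gm29216: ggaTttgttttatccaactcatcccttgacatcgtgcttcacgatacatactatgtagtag

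Libraries were sequenced as 150 bp reads, so a fragment within an aligned stretch and away from such a base matches both loci equally, whereas the copies of mt-Co1 and mt-Nd4 cover only part of these genes. How the authors' software shared fragments between equal matches is not given in the sources used here. The 7 chromosome 1 copies together held 37.6, 50.7, 28.6 and 15.9 FPKM in control mice 1 to 4. In TNFdARE mice 1 to 4 they held 16.2, 51.8, 47.5 and 37.8 FPKM. The groups overlapped over nearly their whole range, and every library had at least 4 of the 7 copies above 0.

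Gm29216, the mt-Co1 copy, was at 0.658, 9.94, 9.70 and 0.495 FPKM in control mice 1 to 4 and at 3.79, 5.14, 16.6 and 34.3 FPKM in TNFdARE mice 1 to 4. Its 2 highest values were in TNFdARE mice, and the groups overlapped (log2 fold change 1.49, standard error 0.89, two-sided exact permutation test, p = 0.23). Gm10925, identical to mt-Atp6 over 678 bases, was at 24.1, 10.1, 0.794 and 6.34 FPKM in control mice and at 1.48, 12.5, 12.3 and 0 FPKM in TNFdARE mice. Gm28661, identical to mt-Co2 over 681 bases, was at 2.29, 10.0, 10.7 and 7.92 FPKM in control mice and at 3.37, 15.2, 6.06 and 0 FPKM in TNFdARE mice. For both copies the groups overlapped, with the lowest value in TNFdARE mouse 4. Gm28437 (mt-Co3) ranged from 0.264 to 9.31 FPKM in control and from 0.669 to 4.57 FPKM in TNFdARE mice, and Gm28439 (mt-Nd4) from 0.309 to 3.50 and from 0.132 to 6.90 FPKM. The remaining 2 copies were at 0 in 4 or more libraries. Gm28438 (mt-Nd3) was at 16.9 and 0.517 FPKM in control mice 2 and 4 against 4.47 and 2.32 FPKM in TNFdARE mice 3 and 4. Gm10222 (mt-Nd4l) was above 0 in TNFdARE mice 2 and 3 alone, at 13.2 and 3.44 FPKM. None of the 7 copies had an unadjusted limma p under 0.05. The 4 other copies, Gm13340, Gm13339, Gm13341 and Gm4076 on chromosomes 2 and 13, had a mean of at most 0.441 FPKM. The part of these copies in the listed 0 of the mitochondrial genes was not tested.

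**Figure D1:**
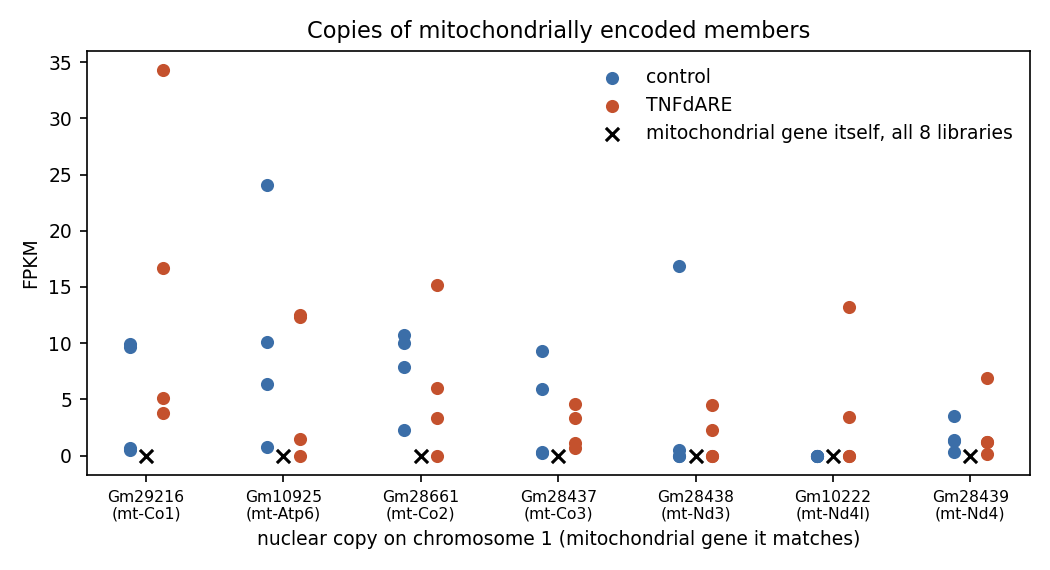
FPKM of the 7 nuclear copies on chromosome 1 in each control and TNFdARE mouse (points), with the mitochondrial gene that each copy matches in parentheses and its listed value as a cross. The crosses are all at 0, while the copies reach 34.3 FPKM, and control and TNFdARE points overlap for each copy.

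Among the 83 nuclear members, 47 were above 0 in at least 1 library and 36 were at 0 in all 8. In control mice 1 to 4, the number of members above 0 was 9, 9, 19 and 20, and the TNFdARE mice 1 to 4 had 4, 27, 39 and 10. It was lowest in the library with the fewest genes above 0 and highest in the one with the most. Of the 47, 15 were above 0 in a single library, and for 9 of these it was TNFdARE mouse 3. A further count by genotype gave 28 members above 0 in both groups, 16 in TNFdARE mice alone and 3 in control mice alone. Of these 16, 9 were above 0 only in TNFdARE mouse 3. The same split over all genes is not given here, so these counts are not a result about the members. In the number of genes above 0, 2 TNFdARE libraries lay above and 2 below all control libraries, and the part of detection in these counts was not tested.

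**Figure D2:**
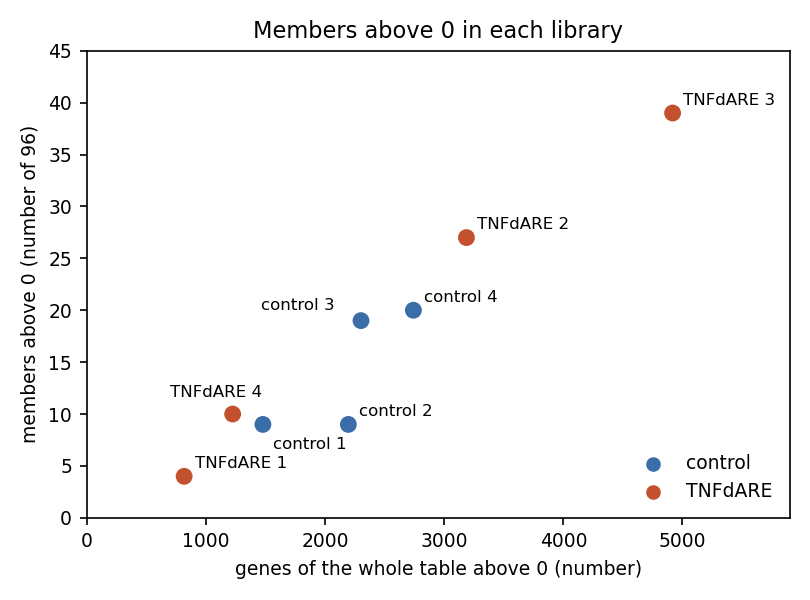
Number of the 96 members above 0 against the number of genes of the whole table above 0, 1 point per library, coloured by genotype. The points run from TNFdARE mouse 1 (4 members, 818 genes) to TNFdARE mouse 3 (39 members, 4917 genes), with the control mice between them.

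A single gene carried most of the members' FPKM in 7 of 8 libraries. Atp5e, the epsilon subunit of the central stalk of ATP synthase, supplied 58.6% to 81.7% of the members' summed FPKM in control mice and 47.4% to 68.1% in TNFdARE mice. The members' sum was 319, 244, 374 and 308 FPKM in control mice 1 to 4 and 306, 377, 329 and 381 FPKM in TNFdARE mice 1 to 4. Without Atp5e it was 101, 44.6, 119 and 127 FPKM in control and 102, 138, 105 and 200.3 FPKM in TNFdARE mice. The groups overlapped in both sums.

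Atp5e and Cox6b1 were the 2 members above 0 in all 8 libraries. Atp5e (ENSMUSG00000016252, chr2:174461072-174464105, minus strand, GRCm38) lies 3190 bases from Tubb1, the beta-tubulin of the platelet marginal band. It was at 218, 199, 255 and 180.5 FPKM in control mice 1 to 4 and at 204, 239, 224 and 181 FPKM in TNFdARE mice 1 to 4. The groups overlapped over most of their range, with means of 213 ± 31.7 (SD, n = 4) and 212 ± 25.4 (SD, n = 4) FPKM. On log2(FPKM + 1), its log2 fold change from control to TNFdARE was -0.0030 (standard error 0.33, 95% interval -0.72 to 0.72, two-sided exact permutation test, p = 0.97), so changes within that interval could not be told from none. It ranked 24 of all genes by mean FPKM. Over the 8 libraries its coefficient of variation was 12.5%, the second lowest of the 409 genes above 0 in every library, whose median was 50.1% and lowest 12.0%. Among the 45 genes averaging at least 100 FPKM it also ranked 2 from the lowest.

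Cox6b1 (ENSMUSG00000036751, chr7:30616861-30626151, minus strand, GRCm38), a subunit at the interface of the complex IV dimer, varied far more. Its values were 45.2, 9.22, 29.6 and 23.2 FPKM in control mice 1 to 4 and 34.2, 50.8, 29.6 and 56.7 FPKM in TNFdARE mice 1 to 4. The lowest value was in control mouse 2 and the highest in TNFdARE mouse 4, and the groups overlapped. The means were 26.8 ± 14.9 (SD, n = 4) and 42.8 ± 13.0 (SD, n = 4) FPKM, and the coefficient of variation over all libraries was 44.6%. The log2 fold change was 0.80 (standard error 0.55, 95% interval -0.39 to 1.99, two-sided exact permutation test, p = 0.17). It ranked first among members and 261 of 1534 genes by p in limma, a linear model with a moderated variance (adjusted p = 0.86 by Benjamini-Hochberg). Without control mouse 1 its log2 fold change was 1.11 with an unadjusted limma p of 0.049, and without control mouse 2 it was 0.38 (unadjusted limma p of 0.41).

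**Figure D3:**
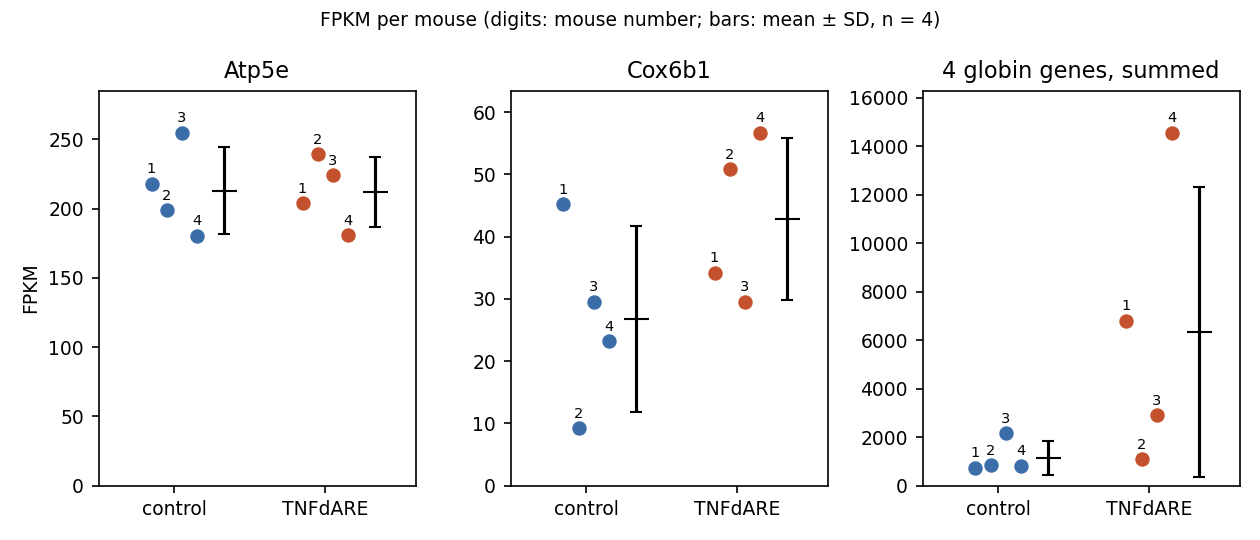
FPKM of Atp5e, of Cox6b1 and of 4 globin genes summed in each mouse, with the mouse number above each point and the mean ± SD of each group beside it. Atp5e stays between 180.5 and 255 FPKM in all 8 mice, Cox6b1 spans 9.22 to 56.7 FPKM, and the globins reach 14556 FPKM in TNFdARE mouse 4.

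The promoters of these 2 members are shown because no other member was above 0 in every library. They are the RefSeq sequences of GRCm38.p6 from 250 bases before to 50 after the gene start, 5′ to 3′, with matches to an ETS-type motif (CCGGAAG, or CTTCCGG on the other strand) in capitals. The Atp5e promoter lies at chr2:174464052-174464351 and that of Cox6b1 at chr7:30626065-30626364, both on the minus strand.

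Atp5e: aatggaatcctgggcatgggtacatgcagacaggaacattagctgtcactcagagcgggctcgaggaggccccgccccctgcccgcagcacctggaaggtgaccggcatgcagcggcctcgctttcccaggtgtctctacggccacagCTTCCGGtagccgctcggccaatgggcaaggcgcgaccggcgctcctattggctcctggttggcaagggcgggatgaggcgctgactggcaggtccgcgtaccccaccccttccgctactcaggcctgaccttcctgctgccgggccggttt
Cox6b1: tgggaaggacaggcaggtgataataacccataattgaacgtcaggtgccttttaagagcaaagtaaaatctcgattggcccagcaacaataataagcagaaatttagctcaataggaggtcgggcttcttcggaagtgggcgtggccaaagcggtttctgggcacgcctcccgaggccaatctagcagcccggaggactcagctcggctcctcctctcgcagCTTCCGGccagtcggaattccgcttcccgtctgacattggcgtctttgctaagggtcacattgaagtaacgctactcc

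The match began 102 bases before the start in Atp5e and 28 before it in Cox6b1. Of the 83 nuclear members, 66 matched a RefSeq promoter by gene identifier or else by symbol, with 71 promoters. The ETS-type motif was in 16 of them (22.5%), against 8.86% of all 32851 promoters. The ETS factor GABP is a known regulator of respiratory genes. Of the promoters of members with a mean FPKM of at least 1, 22.2% held the ETS-type motif, and of those of nuclear members at 0 in all libraries, 25.8%. A match describes the letters and not a bound site.

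For the comparison of genotypes, log2(FPKM + 1) was fitted with limma for the 1534 genes that averaged 1 FPKM or more. 20 members passed this limit, 5 of complex I, 2 of complex III, 8 of complex IV and 5 of complex V. The last inside it was Cox7a2 with a mean of 1.16 FPKM, and the first outside it was Ndufb8 with 0.912 FPKM. None of the 20 passed the test between genotypes, with 0 at an adjusted p under 0.05 and 0 at an unadjusted p under 0.05. Over all genes tested, 4.5% had an unadjusted p under 0.05 (1.76% higher and 2.74% lower in TNFdARE) and 0 had an adjusted p under 0.05 (smallest 0.86, limma with Benjamini-Hochberg adjustment). Of the 20 members, 0 had groups that did not overlap, against 3.32% of all genes tested. The log2 fold change was above 0 in 13 of the 20 members and in 37% of all genes tested, with a median of 0.35 over the members and -0.30 over all genes. These are descriptions, since some members met the mean limit through 1 group alone. Without control mouse 2 or TNFdARE mouse 4 it was above 0 in 10 of 20 members. The median of all genes was -0.060 with quantile normalization, -0.011 with sample weights and 0.011 without TNFdARE mice 1 and 4. The median of the members was -0.035 without TNFdARE mouse 4 and 0.037 without control mouse 2, and over the mice the per-mouse median had a pooled SD of 0.63.

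Erythroid transcripts moved with the genotype in the same libraries. The 4 globin genes summed to 734, 843, 2173 and 822 FPKM in control mice 1 to 4 and to 6802, 1093, 2896 and 14556 FPKM in TNFdARE mice 1 to 4. Of 18 erythroid markers in the table, 10 were tested and 6 were higher at an unadjusted p under 0.05, with log2 fold changes of 2.08 for Hbb-bs, 2.01 for Hba-a1, 2.25 for Hbb-bt, 1.95 for Hba-a2, 1.92 for Alas2 and 1.68 for Fech (adjusted p = 0.86 by limma for each). The markers' sum was 793 to 2228 FPKM in control and 1140 to 14707 FPKM in TNFdARE mice, and Klf1 and Rhag were at 0 in all libraries. The highest value of Cox6b1, Cox5a, Cox6a1, Cox7a2, Ndufa1 and Atp5g3 among all 8 mice was in TNFdARE mouse 4, the library with the most globin RNA. In that library 9 of the 20 tested members were above 0. TNFdARE mouse 1, with the next highest globin sum, had 4 above 0, and Cox5a, Cox6a1, Cox7a2, Ndufa1 and Atp5g3 were at 0 in it. The part of erythroid RNA in these values was not tested. Summed markers of neutrophils (at most 10.3 FPKM) and T cells (at most 1.02 FPKM) were low in every library. Those of monocytes and macrophages lay between 30.8 and 50.8 FPKM in control and between 12.0 and 36.1 FPKM in TNFdARE mice, and those of B cells reached 25.3 and 12.5 FPKM.

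**Figure D4:**
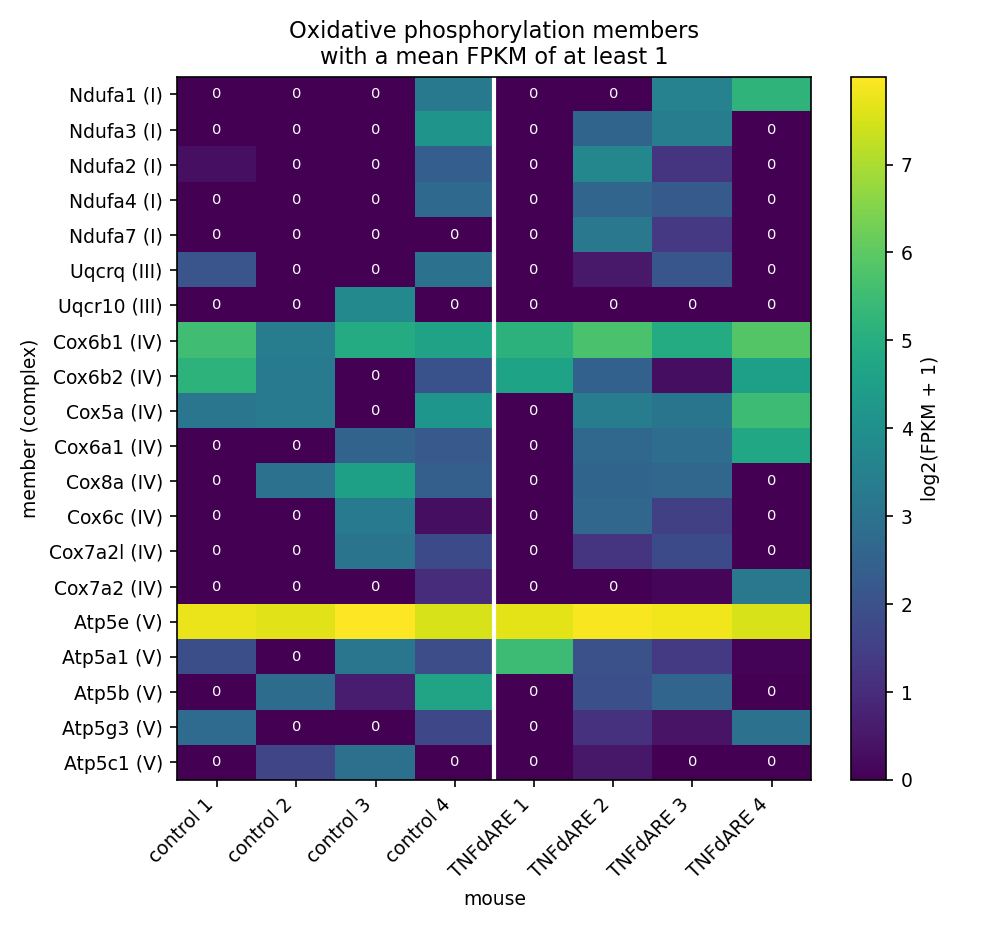
log2(FPKM + 1) of the 20 members with a mean FPKM of at least 1 (rows, with their complex in parentheses) in each mouse (columns, control left and TNFdARE right of the white line), where 0 marks a listed 0. Atp5e is the brightest row in every mouse, Cox6b1 is above 0 throughout, and TNFdARE mouse 1 has 4 members above 0.

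Complex I is the entry point for NADH. Of its 44 members 20 were above 0 in at least 1 library, of which 10 in TNFdARE mice alone and 1 in control mice alone, and none in every library. For 5 of them it was TNFdARE mouse 3 alone, the library with the most genes above 0. The same split over all genes is not given here either. The core subunits Ndufs3, Ndufs8, Ndufv1 and Ndufv2 were at 0 in all 8 libraries, while Ndufs1 was at 4.69 and 0.390 FPKM in control mice 3 and 4 and 0.187 FPKM in TNFdARE mouse 3, and Ndufs7 at 2.54 FPKM in TNFdARE mouse 2. The complex I sum was 0.253, 1.25, 11.7 and 35.2 FPKM in control mice 1 to 4 and 0, 43.7, 35.4 and 35.7 FPKM in TNFdARE mice 1 to 4. It was near 0 in control mice 1 and 2 and 0 in TNFdARE mouse 1, and high in control mouse 4 and the other TNFdARE mice. The difference of the log2(sum + 1) means was 1.38, with a pooled SD between mice of 2.45.

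Ndufa1 (ENSMUSG00000016427, on the X chromosome), a small membrane subunit needed for assembly, was at 8.39 FPKM in control mouse 4 against 10.7 and 35.7 FPKM in TNFdARE mice 3 and 4, and at 0 in the other 5 libraries. Its level in TNFdARE mouse 4 made up all of that library's complex I sum. Ndufa3 was at 16.5 FPKM in control mouse 4 against 4.95 and 9.24 FPKM in TNFdARE mice 2 and 3. Ndufa4 had the same pattern, at 5.69 FPKM in control mouse 4 and 5.14 and 3.84 FPKM in TNFdARE mice 2 and 3. Both were at 0 elsewhere, as no mouse other than these 3 had them above 0. Ndufa2 was at 0.253 and 4.22 FPKM in control mice 1 and 4 against 11.9 and 1.32 FPKM in TNFdARE mice 2 and 3. Ndufa7 was at 8.24 and 1.50 FPKM in TNFdARE mice 2 and 3 and at 0 in all control mice. Ndufa7 met the mean limit through these 2 mice alone, and its two-sided exact permutation p was 0.43.

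Complex II, succinate dehydrogenase, which also works in the citric acid cycle, was listed at low values, and none of its 4 members was tested. Sdha, the flavoprotein, was at 0.320 and 0.402 FPKM in control mice 3 and 4 against 0.410 and 0.239 FPKM in TNFdARE mice 2 and 3. Sdhc, a membrane anchor, was at 0.206 FPKM in control mouse 4 alone. Sdhb, the iron-sulfur subunit, and Sdhd, the other anchor, were at 0 in all 8 libraries. The complex II sum reached 0.608 FPKM in control and 0.410 FPKM in TNFdARE mice, below the sums of complexes I, III, IV and V in each library where it was above 0.

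Complex III, ubiquinol-cytochrome c reductase, had 6 of 9 members above 0 in at least 1 library. Its sum was 3.29, 0, 13.4 and 6.84 FPKM in control mice 1 to 4 and 0, 4.69, 4.61 and 1.27 FPKM in TNFdARE mice 1 to 4. The groups overlapped, and the difference of the log2(sum + 1) means was -0.68 with a pooled SD of 1.44. Uqcrq, a small subunit beside cytochrome b, was at 3.29 and 6.84 FPKM in control mice 1 and 4 against 0.451 and 3.42 FPKM in TNFdARE mice 2 and 3. Uqcr10 was at 12.7 FPKM in control mouse 3 and at 0 in the other 7 libraries. 4930481A15Rik, an antisense transcript that matches Uqcr10 at 95.8% over 191 bases, was at 24.4 and 0.501 FPKM in control mice 1 and 4. Uqcr10 itself passed the mean limit through 1 control mouse alone and had a two-sided exact permutation p of 1. Uqcr11 was above 0 in TNFdARE mice alone, at 4.24, 0.257 and 1.27 FPKM in mice 2, 3 and 4. The core subunits Uqcrc1 and Uqcrc2 stayed at or below 0.683 FPKM, and the Rieske iron-sulfur protein Uqcrfs1 and Uqcrb were at 0 throughout.

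Complex IV, cytochrome c oxidase, had the most members with a mean FPKM of at least 1. Its sum was 88.2, 33.6, 75.8 and 55.4 FPKM in control mice 1 to 4 and 58.1, 81.8, 54.2 and 156 FPKM in TNFdARE mice 1 to 4. TNFdARE mouse 4 was highest and control mouse 2 lowest, and the remaining 6 mice were interleaved. The difference of the log2(sum + 1) means was 0.42, with a pooled SD of 0.65. Cox6b1 had the highest mean over the 8 mice, 34.8 FPKM. Cox6b2 (12.2 FPKM) and Cox5a (11.8 FPKM) came next with means closer than their spread, and their order differed between the groups.

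Cox6b2, a form of Cox6b1 best known from testis, was at 35.1, 8.72, 0 and 3.04 FPKM in control mice 1 to 4 and at 23.9, 4.58, 0.237 and 21.6 FPKM in TNFdARE mice 1 to 4. Both groups ran from near 0 to above 20 FPKM, and the fold change, 0.36 on the log2 scale, had a 95% interval from -2.11 to 2.84. With 1 mouse left out it lay between -0.51 (control mouse 3) and 1.26 (TNFdARE mouse 3), and it also turned below 0 with TNFdARE mouse 1 (-0.19) or TNFdARE mouse 4 (-0.14) left out. Other forms known from testis, heart or skeletal muscle were listed at or near 0. Cox6a2 was at 0.133 FPKM in TNFdARE mouse 3 alone, and Cox7a1, Cox8b, Cox8c and Cox7b2 were at 0 in all libraries, as was Cox4i2. The symbol Cox4i1 would fit the naming of the members, but no gene of the table carried it, so it was not analysed.

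Cox5a, a matrix-side subunit, was at 7.89, 8.52, 0 and 17.5 FPKM in control mice 1 to 4 and at 0, 9.41, 7.69 and 43.7 FPKM in TNFdARE mice 1 to 4. Each group had 1 mouse at 0, and the log2 fold change was 0.34 (95% interval -2.08 to 2.77). It rose to 1.34 with TNFdARE mouse 1 left out and turned to -0.54 with control mouse 3 and -0.49 with TNFdARE mouse 4 left out. Its partner Cox5b was at 0 in all 8 libraries. Cox6a1 was at 0, 0, 4.79 and 3.66 FPKM in control mice and at 0, 5.45, 6.19 and 26.0 FPKM in TNFdARE mice 1 to 4. The 3 highest values were in TNFdARE mice, and the log2 fold change was 1.38 (standard error 1.00, two-sided exact permutation test, p = 0.20, adjusted p = 0.86 by limma). Without TNFdARE mouse 1, the library with the fewest genes above 0, it was 2.24 with an unadjusted limma p of 0.041, and without TNFdARE mouse 4, which held its highest value, it was 0.66 (unadjusted limma p of 0.55).

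Cox8a, the ubiquitous form of the smallest subunit, went the other way, at 0, 7.16, 22.5 and 4.36 FPKM in control mice 1 to 4 and at 0, 4.98, 5.19 and 0 FPKM in TNFdARE mice 1 to 4. The groups overlapped, and the log2 fold change was -1.20 (standard error 1.01, two-sided exact permutation test, p = 0.40). It was 0.10 without TNFdARE mice 1 and 4, where it was at 0, -0.51 without control mouse 3 and -2.03 without control mouse 1. Cox6c was at 9.06 and 0.238 FPKM in control mice 3 and 4 against 5.20 and 1.85 FPKM in TNFdARE mice 2 and 3. Its processed copy Cox6c2, 97.0% identical over 231 bases, was at 43.8 FPKM in control mouse 4 and at 0 elsewhere, so the Cox6c values are uncertain. Cox7a2l was at 7.47 and 2.44 FPKM in control mice 3 and 4 against 1.37 and 2.44 FPKM in TNFdARE mice 2 and 3. Cox7a2 was at 1.01 FPKM in control mouse 4 against 0.109 and 8.14 FPKM in TNFdARE mice 3 and 4. Cox7b was at 2.37 and 0.867 FPKM in the third mouse of each group, and Cox7c was at 0.

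Complex V, the ATP synthase, had the highest sum in every library because of Atp5e. The sum was 227, 209, 272 and 209.8 FPKM in control mice 1 to 4 and 248, 247, 235 and 188 FPKM in TNFdARE mice 1 to 4. Its difference of log2(sum + 1) means was -0.0022 with a pooled SD of 0.18, the smallest spread of complexes I to V. Without Atp5e the sum was 9.42, 9.71, 17.7 and 29.4 FPKM in control mice and 43.8, 7.68, 10.3 and 7.15 FPKM in TNFdARE mice. The groups then overlapped, with TNFdARE mouse 1 highest.

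The catalytic head of the synthase is built from alpha and beta subunits in equal number. Atp5a1 (alpha) was at 2.78, 0, 7.88 and 2.74 FPKM in control mice 1 to 4 and at 43.8, 2.96, 1.59 and 0.0553 FPKM in TNFdARE mice 1 to 4. The value in TNFdARE mouse 1 stood far above the others, and the log2 fold change of 0.49 (95% interval -1.83 to 2.81) became -0.60 without that mouse. Atp5b (beta) was at 0, 6.03, 0.561 and 24.3 FPKM in control mice and at 0, 2.91, 5.08 and 0 FPKM in TNFdARE mice. The groups overlapped, with a log2 fold change of -0.89 (95% interval -3.15 to 1.37) that became -0.0096 when control mouse 4 was left out and -1.56 when control mouse 1 was. Atp5a1 and Atp5b were highest in different mice. Atp5c1, the gamma subunit of the rotating stalk, was at 2.20 and 6.67 FPKM in control mice 2 and 3 and at 0.437 FPKM in TNFdARE mouse 2. Atp5d, its delta partner in the stalk that also holds Atp5e, was at 2.62 and 1.68 FPKM in the third mouse of each group.

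Of the 3 genes for the identical c-ring subunit, Atp5g1 and Atp5g2 were at 0 in all libraries and Atp5g3 was above 0 in 5. Atp5g3 was at 5.96, 0, 0 and 2.33 FPKM in control mice 1 to 4 and at 0, 1.19, 0.353 and 7.10 FPKM in TNFdARE mice 1 to 4. The groups overlapped, with a log2 fold change of 0.013 (95% interval -1.92 to 1.95) that lay between -0.61 and 0.57 with 1 mouse left out. Of the peripheral stalk, Atp5f1 was at 0.679 and 1.49 FPKM in control mice 1 and 2 and 0.884 FPKM in TNFdARE mouse 3, and Atp5h at 0.182 FPKM in TNFdARE mouse 2. Gm10250, a processed copy of Atp5h with 99.0% identity over 485 bases, was at 34.9, 2.10 and 0.994 FPKM in TNFdARE mice 1, 2 and 3 and at 0 in the other 5 libraries. Atp5o and Atp5j were at 0 throughout.

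**Figure D5:**
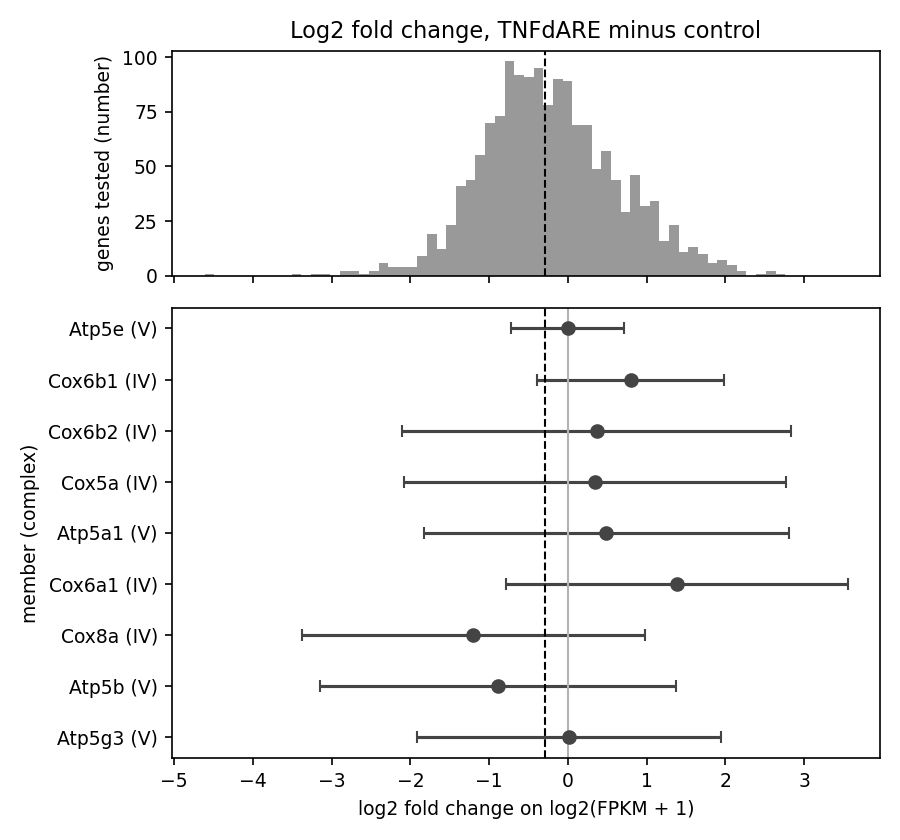
Log2 fold change from control to TNFdARE on log2(FPKM + 1), as a histogram over the 1534 genes tested (top) and with 95% intervals for the 9 members above 0 in at least 5 libraries (bottom). The dashed line marks the median of all genes, -0.30, and the interval of every member spans 0.

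Fold changes are given for the 9 members above 0 in at least 5 of 8 libraries, a limit chosen after the values were seen. They understate the change of low values, and their intervals reach from 0.72 on either side of the estimate for Atp5e to more than 2 for Cox6b2, Cox5a, Atp5a1, Cox6a1, Cox8a and Atp5b. Sequence sharing also touches the members. Of the 83 nuclear members, 32 share sequence with another gene of the table at 95% identity, 13 of them with one above 0, and 5 of the 20 tested do. The longest annotated transcript of the 20 tested members had a median of 822 bases, against 2522 bases for all genes tested and 982.5 bases for the 36 nuclear members at 0.

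The genes around the complexes were described by lists. Atpif1, the inhibitor of reverse ATP synthase activity, was above 0 in all 8 libraries, at 11.3, 21.3, 10.5 and 37.0 FPKM in control mice 1 to 4 and 27.5, 23.0, 24.9 and 35.4 FPKM in TNFdARE mice 1 to 4. The groups overlapped, with a log2 fold change of 0.61 (standard error 0.54). Cytochrome c (Cycs), Ndufab1 and Usmg5 were at 0 in all libraries. Of 46 assembly factors in the table, 6 were tested and 0 passed an unadjusted p under 0.05. The summed FPKM of the list was 25.5 to 41.1 in control and 3.37 to 24.4 in TNFdARE mice, and the 6 log2 fold changes were below 0 (median -0.72, against -0.30 for all genes). Single libraries carried much of this, with Coa3 at 29.3 FPKM in control mouse 3 and Cox14 at 22.0 FPKM in control mouse 1, and Cox14 met the mean limit through the control group alone. Of the mitochondrial carriers and porins 4 were tested and 0 passed (median -0.14), and of the genes of mitochondrial genome expression only Slirp was tested (1.25), which did not pass. None of the 18 genes of the citric acid cycle and pyruvate dehydrogenase or the 8 regulators of mitochondrial biogenesis reached a mean FPKM of 1.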

How the data were processed

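RNA from washed platelets was extracted with TRIzol and sequenced as 150 bp reads. The deposited table holds 1 value for each gene in each mouse, taken to be FPKM as computed by the authors. The unit was inferred from Cufflinks, which the submitters' processing notes name together with mm10, and from columns that sum to different totals. The study's methods for its spatial data mention CPM with reference to the bulk libraries, which a column total that differs between mice does not allow. The version, annotation and treatment of fragments with several matches are not given in the sources used here. No step equal to 1 fragment was found in low values, so the depth is unknown and no count model was used. All 8 value columns were mapped by library name, and 0 were unmapped.

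Genes averaging 1 FPKM or more were compared on log2(FPKM + 1) with limma 3.58.1 (R 4.3.3), with empirical Bayes moderation, a trend and Benjamini-Hochberg adjustment over all 1534 genes tested. Single members were also compared by an exact permutation test, two-sided and over 70 arrangements, of the difference of means, whose smallest p is 0.029. Members and lists were chosen with earlier results of these data known. Members named with values per mouse are the 20 averaging 1 FPKM or more and all mitochondrial genes; further members and genes were named after their values were seen. Controls were littermates. Some library names share a number across the groups, whose meaning is not given in the sources used here, and they were not used to pair mice.

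Alternatives were pseudocounts of 0.1 and 5, other filters, quantile, median-of-ratios and AY036118-free scaling, no trend, sample weights, sex, replicate block, adding genes that share sequence, and leaving out each mouse. Shared sequence was found with BLAST 2.17.0 in GENCODE M21 (GRCm38), and promoters came from RefSeq. Plots were made with Python 3.11.15 and matplotlib 3.10.9.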

Additional observations from a re-analysis of the deposited data

Results flagged for a closer look

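Groups of 4 mice were examined for a mouse whose gap to the nearest other mouse took up more of the group's range than Dixon's 95% critical value for 4 values. The 67 groups came from the 20 members tested, the sums of the complexes and of all members, the number of members above 0, and the chromosome 1 copies of mitochondrial genes, leaving out groups whose mice all had 1 value. There were 15 such groups, where chance gives about 3.4 for values without the many listed 0 of these libraries, so that a gap often shows only which mouse had the gene above 0.

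The gap is given as a share of the range. Among control mice, mouse 4 stood apart in Ndufa1 (8.39 FPKM, 1.0), Ndufa3 (16.5 FPKM, 1.0), Ndufa4 (5.69 FPKM, 1.0), Cox7a2 (1.01 FPKM, 1.0) and Ndufa2 (4.22 FPKM, 0.94), and mouse 3 in Uqcr10 (12.7 FPKM, 1.0) and Cox6c (9.06 FPKM, 0.974). Among TNFdARE mice, mouse 1 stood apart in Atp5a1 (43.8 FPKM, 0.934) and mouse 4 in Atp5g3 (7.10 FPKM, 0.832) and Cox7a2 (8.14 FPKM, 0.987). Mouse 2 did so in Ndufa2 (11.9 FPKM, 0.889) and Atp5c1 (0.437 FPKM, 1.0), and mouse 3 in Uqcrq (3.42 FPKM, 0.868). Of the copies, Gm28438 was at 16.9 FPKM in control mouse 2 (0.969) and Gm28439 at 6.90 FPKM in TNFdARE mouse 1 (0.836).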

How the results depend on the processing

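No gene reached an adjusted p under 0.05 in limma under the main analysis (69 genes at an unadjusted p under 0.05) or any alternative, and the smallest adjusted p over the alternatives lay between 0.055 and 0.90. The genes at an unadjusted p under 0.05 numbered 36 with a mean limit of 5 FPKM (583 genes tested) and 111 with sample weights, and 46 to 75 with 1 mouse left out. With quantile normalization 34 were higher and 25 lower, against 27 and 42, and with sample weights 74 and 37. The split was 8 and 41 when control mouse 1 was left out, 35 and 27 when TNFdARE mouse 1 was, 26 and 20 when TNFdARE mouse 4 was, and 51 and 13 when TNFdARE mice 1 and 4 both were. The members at an unadjusted p under 0.05 numbered 0 in 17 of 22 alternatives and 1 in the other 5. It was 1 with sample weights (Ndufa7, listed at 0 in all control mice), with genes that share sequence added (Uqcr10, through an antisense transcript in control mouse 1), without control mouse 1 (Cox6b1), without TNFdARE mouse 1 (Cox6a1) and without TNFdARE mice 1 and 4 (Ndufa7), and ranged from 0 to 1 with 1 mouse left out. Leaving out TNFdARE mice 1 and 4 and adding only pseudogenes, which gave 0, were chosen after seeing the data.

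The sign of the log2 fold change turned for 7 of the 9 members with one. Atp5e (-0.0030) was 0.15 with quantile normalization, 0.061 with median-of-ratios scaling and 0.16 with sample weights. Atp5g3 (0.013) was -0.00053 with a pseudocount of 5, -0.065 after rescaling without AY036118 and -0.33 with sample weights, with which Cox6b2 was -0.95 and Atp5a1 -0.084. Without TNFdARE mice 1 and 4, Atp5e was 0.13, Cox6b2 -1.22, Atp5a1 -0.062, Cox8a 0.10, Atp5b 0.26 and Atp5g3 -0.35. With 1 mouse left out, it ranged from -0.078 to 0.086 for Atp5e, from -0.51 to 1.26 for Cox6b2, from -0.54 to 1.34 for Cox5a, from -0.60 to 1.21 for Atp5a1, from -0.61 to 0.57 for Atp5g3, from -2.03 to -0.51 for Cox8a, from -1.56 to -0.0096 for Atp5b, from 0.38 to 1.11 for Cox6b1 and from 0.66 to 2.24 for Cox6a1. The cause was not tested, and Cox6b1 and Cox6a1 stayed above 0 in all 22.

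The deviations of mice with the same number from their group means had correlations of 0.060, -0.062, 0.024 and -0.067. For mice with different numbers they lay between -0.11 and 0.097. With 4 mice per group, these values cannot show whether mice were paired, and the numbers within library names were not examined. With the replicate number as a block, 64 genes and 0 members had an unadjusted p under 0.05, and the median of the members was 0.35. Unknown depth and many listed 0 values limit what these libraries can show for the members.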
